A study of Mus musculus with 6 samples.

Results

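The signal recognition particle (SRP), its receptor and the Sec61 translocon bring nascent secretory and membrane proteins to the endoplasmic reticulum (ER). Transcripts of 10 genes of this machinery were examined in mouse morulae with and without *Yy1* knockdown (KD). They were *Srp68*, *Srp72*, *Srp54a*, *Srp19*, *Srp14* and *Srp9* of the particle, *Srpr* and *Srprb* of the receptor, and *Sec61a1* and *Sec61b* of the translocon. All 10 were found by symbol among 55364 genes listed, and all 10 passed the filter on low values that left 17353 genes to test. *Srp68* was chosen by its fall in *Yy1* KD morulae, so its change is described here without a test, whereas the other 9 genes were listed by function. Both groups were BDF1 x BDF1 embryos cultured in KSOM, whose zygotes received either a control siRNA (control KD) or an siRNA against *Yy1*, a zinc finger transcription factor (*Yy1* KD). Morulae were collected 64 h after insemination. Each group had 3 libraries of total RNA, each a pool of 10 morulae whose sex is not given, and nothing states that the 3 pools came from separate rounds of fertilization. The p-values therefore measure the spread between these pools.

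SRP is an RNA and protein complex that recognises the hydrophobic signal sequence of a chain as it leaves the ribosome. SRP54 holds the signal sequence and its GTPase meets that of the receptor, SRP19 helps SRP54 onto the RNA, SRP68 and SRP72 form a heterodimer on the same domain of the RNA, and SRP9 and SRP14 form another at the opposite end that slows elongation. The receptor, a GTPase encoded by *Srpr* and held at the ER membrane by another GTPase encoded by *Srprb*, then passes the ribosome to Sec61, the channel through which the chain enters the ER or its membrane.

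Promoter sequences from 250 bases before to 50 bases after the start of transcription (RefSeq, GRCm38.p6) were matched for 7 of the 10 genes. *Srp68*, *Srp19* and *Sec61a1* were not among them. Windows of the called genes are shown so that the letters can be set beside the expression values that follow. The YY1 consensus AANATGGC (GCCATNTT on the other strand) was present in 6.05% of all 32851 promoters and in 1 of the 7, that of *Srp72*. Its first base was base 21, with the start counted as base 1, in the sense orientation, and its ATG is the start codon annotated in GENCODE vM21. The site (chr5:76974721-76974728) is printed 5′ to 3′ within chr5:76974710-76974739 on the plus strand, with the consensus in capitals.
*Srp72* site: ccacctcctccAAGATGGCgagcggcggca

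The next stretches lie upstream of *Srp72* (chr5:76974533-76974682, plus strand), of *Srprb* (chr9:103202138-103202287, minus strand) and of *Srpr* (chr9:35211053-35211202, plus strand). Each is 150 bases and ends before the RefSeq start. An alternative start of *Srpr* in GENCODE lies further upstream. Capitals mark the motifs searched on both strands besides the YY1 consensus. These were the ETS core CGGAAG (in 16.9% of all promoters), ACTACAANT of the ZNF143 motif (1.49%), the cAMP response element core TGACGT (7.51%), the CCAAT box CCAAT (37.4%) and the GC box GGGCGG (35.7%).
*Srp72*: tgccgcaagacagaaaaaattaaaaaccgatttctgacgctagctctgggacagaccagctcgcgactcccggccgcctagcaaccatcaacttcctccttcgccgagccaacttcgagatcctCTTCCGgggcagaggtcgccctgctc
*Srprb*: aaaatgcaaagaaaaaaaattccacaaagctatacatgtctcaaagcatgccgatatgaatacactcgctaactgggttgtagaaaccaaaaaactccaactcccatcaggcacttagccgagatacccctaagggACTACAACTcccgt
*Srpr*: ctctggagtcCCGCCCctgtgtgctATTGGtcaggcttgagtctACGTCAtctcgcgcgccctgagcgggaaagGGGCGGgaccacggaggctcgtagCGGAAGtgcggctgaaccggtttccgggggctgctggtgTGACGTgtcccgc

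In the whole windows, the ETS core was found in 4 of the 7 genes (*Srp72*, *Srp54a*, *Srp14* and *Srpr*) and the GC box in 5 (*Srp54a*, *Srp14*, *Srp9*, *Srpr* and *Sec61b*). The CCAAT box was found in 3 (*Srp54a*, *Srp9* and *Srpr*), the cAMP response element core in 2 (*Srp54a* and *Srpr*) and the ZNF143 letters in 1 (*Srprb*). Letters of 2 motifs overlapped in *Srp54a* alone, where a CCAAT box, a GC box and an ETS core follow each other. A match is a description of letters and not of binding, which was not measured here.

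Multiplying TPM by exon length recovered between 11793509 and 24417789 read pairs on genes per library, and between 164 and 4979 pairs on a member in a library. *Yy1* itself was at 96.0, 100.2 and 89.8 TPM in control KD and at 8.73, 8.90 and 8.32 TPM in *Yy1* KD morulae. Of the markers of the embryo, *Pou5f1* was between 649.0 and 741.7 TPM and all 11 exceeded 30 TPM in every library. Of the 11, *Tfap2c* was called lower, from 191.7, 178.8 and 179.7 TPM to 134.8, 116.5 and 125.4 TPM (log2 fold change -0.54, limma adjusted p = 0.0174). Markers of cumulus and granulosa cells summed to between 9.64 and 12.5 TPM, mostly *Amhr2*, and *Ptx3*, *Has2* and *Tnfaip6* were at 0 in all libraries. Markers of the oocyte summed to between 47.9 and 66.6 TPM, with ranges that overlapped between the groups. Genes of the ER chaperone response stood apart in control KD library 3, which is described with them below.

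*Srp68* (ENSMUSG00000020780.15) lies on the minus strand of chromosome 11 from 116245166 to 116274217 (GRCm38). The control KD libraries held it at 75.7, 81.9 and 74.3 TPM and the *Yy1* KD libraries at 21.8, 15.5 and 18.3 TPM. Every *Yy1* KD library was thus far below every control KD library, and the spread within each group was a few TPM. The mean went from 77.3 ± 4.06 to 18.5 ± 3.13 TPM (SD, n = 3 each), which is 24.0% of control, and the difference was -2.01 on the log2(TPM + 1) scale (limma standard error 0.13). In order of this difference *Srp68* was the 64th lowest of the 17353 genes tested, and the 21st of the 8084 genes with a mean of at least 10 TPM. It rested on between 234 and 2314 read pairs per library. The exons of *Srp68* share no position with another annotated gene, and 0% of its 100-nt windows were found in transcripts of another gene. Leaving out any 1 library kept the difference between -2.13 and -1.90. In pools of whole embryos, fewer cells with a transcript and less of it per cell cannot be told apart.

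The neighbours of *Srp68* were hardly expressed. *Evpl*, which lies 7089 nt from *Srp68* and encodes envoplakin of the epidermal envelope, was at 1.33, 0.895 and 1.72 TPM in control KD and 0.334, 0.484 and 0.664 TPM in *Yy1* KD morulae. *Galr2*, a galanin receptor gene 6722 nt away on the other side, was between 0.164 and 1.02 TPM in the 6 libraries. Neither passed the filter on low values, so neither was tested.

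*Srp72*, which encodes the direct partner of SRP68, was downregulated to a much smaller extent. Its level was 43.9, 41.2 and 41.6 TPM in control KD and 33.5, 28.8 and 31.0 TPM in *Yy1* KD morulae. The groups did not overlap, and the lowest control KD library was still above the highest *Yy1* KD library by several TPM. The mean fell from 42.2 ± 1.49 to 31.1 ± 2.36 TPM (SD, n = 3 each), which is 73.7% of control (log2 fold change -0.43, standard error 0.09, limma adjusted p = 0.0444). A two-sided exact permutation test gave p = 0.1, the smallest that 3 libraries against 3 allow, as for every member below whose groups did not overlap. The call was lost with median-ratio scaling (limma adjusted p = 0.0527), without a filter on low values (0.0791), with quantile normalization (0.0687), without a variance trend (0.0944) and with any 1 library left out (0.0656 to 0.13).

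The other proteins of the particle gave no call in either direction. *Srp14* was the member with the highest level, at 206.6, 195.2 and 185.4 TPM in control KD and 265.8, 230.8 and 233.9 TPM in *Yy1* KD morulae. All *Yy1* KD libraries were higher, by 0.31 on the log2 scale (standard error 0.08), which did not pass the threshold (limma adjusted p = 0.0792). *Srp9*, its heterodimer partner, gave a like picture, at 81.7, 69.6 and 68.2 TPM against 85.3, 97.6 and 105.3 TPM. Its groups came close to each other but did not overlap (log2 fold change 0.39, standard error 0.11, limma adjusted p = 0.0948). A processed pseudogene on the opposite strand, *Gm17968*, shares 784 nt with the exons of *Srp9* and was between 0.386 and 4.10 TPM, and the strand of a pair was not used in counting. Both *Srp14* and *Srp9* were called by limma-voom on the recovered read pairs (adjusted p = 0.0388 and 0.0261), an alternative chosen after the data had been seen.

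*Srp19*, whose product prepares the RNA for SRP54, was at 34.6, 32.2 and 33.4 TPM in control KD and 45.1, 32.7 and 32.2 TPM in *Yy1* KD morulae. Only *Yy1* KD library 1 was above the control range, and without it the log2 fold change, 0.11 over all libraries (standard error 0.14, limma adjusted p = 0.679), became -0.04. *Srp54a*, which encodes the signal-binding subunit, had the lowest mean of the 6 protein genes of the particle in both groups, although in *Yy1* KD morulae its range overlapped that of *Srp68*, at 15.2, 10.2 and 11.5 TPM against 16.3, 18.8 and 12 TPM. The groups overlapped and it was not called (log2 fold change 0.33, standard error 0.21, limma adjusted p = 0.402). Its value is uncertain, because 66.6% of its 100-nt windows also occur in other genes, above all in the copies *Srp54b* and *Srp54c*. *Srp54c* was between 8.53 and 13.1 TPM without a call. *Srp54b* was between 1.25 and 1.39 TPM in control KD and at 10.8, 1.88 and 2.71 TPM in *Yy1* KD morulae, so that its mean difference came mainly from *Yy1* KD library 1 (log2 fold change 1.12, standard error 0.51, limma adjusted p = 0.248).

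The RNA of the particle, 7SL, is transcribed from *Rn7s1* and *Rn7s2*, a pair of near-identical genes whose reads cannot be assigned with certainty. *Rn7s1* was at 4586, 3974 and 4131 TPM in control KD and 4076, 2767 and 2755 TPM in *Yy1* KD morulae, and *Yy1* KD library 1 lay within the control range. *Rn7s2* was at 5943, 6674 and 4589 TPM against 4537, 4265 and 3248 TPM. Its groups were apart by a narrow margin. Neither was called by limma on TPM (log2 fold changes -0.43 and -0.51, standard errors 0.17 and 0.18, adjusted p = 0.182 and 0.151), and limma-voom on read pairs called *Rn7s2* at an adjusted p of 0.0476.

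**Figure D1:**
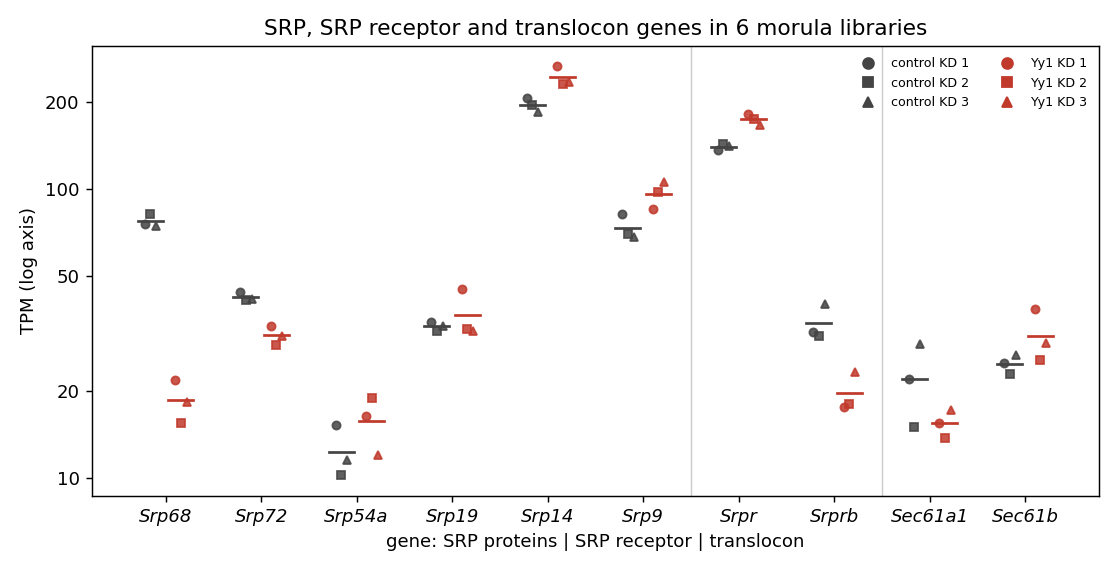
Level of the 10 genes in each of the 6 libraries, in TPM on a log axis, with control KD in grey and *Yy1* KD in red. Symbols mark replicates 1 to 3 and short bars the mean of 3 libraries. *Srp68*, *Srp72* and *Srprb* lie lower in all *Yy1* KD libraries, *Srp14*, *Srp9* and *Srpr* lie higher, and the groups overlap for the other 4 genes.

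The subunits of the SRP receptor moved in opposite directions. *Srprb*, the membrane anchor, was at 31.9, 31.0 and 40.1 TPM in control KD and 17.6, 18.0 and 23.3 TPM in *Yy1* KD morulae. All 3 *Yy1* KD libraries were below the control range, and library 3 was the highest of each group. The mean fell from 34.3 ± 5.03 to 19.6 ± 3.15 TPM (SD, n = 3 each), 57.2% of control (log2 fold change -0.78, standard error 0.15, limma adjusted p = 0.0369). Of its exon sequence, 20.7% is shared with *Gm20425*, a gene annotated on the same strand that was not analysed here. The call was lost without a filter on low values (limma adjusted p = 0.0834), without a variance trend (0.0719) and without any 1 library other than *Yy1* KD replicate 3 (0.0748 to 0.114). Without *Yy1* KD replicate 3 it was kept (limma adjusted p = 0.0455).

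*Srpr*, which encodes the GTPase that docks SRP, was at 136.8, 143.3 and 140.5 TPM in control KD and 181.8, 174.5 and 166.1 TPM in *Yy1* KD morulae. The control KD libraries agreed within 7 TPM and all *Yy1* KD libraries were above them. The mean rose from 140.2 ± 3.28 to 174.1 ± 7.87 TPM (SD, n = 3 each), 124% of control (log2 fold change 0.31, standard error 0.07, limma adjusted p = 0.0469). This call was close to the threshold and was lost with a pseudocount of 0.1 (limma adjusted p = 0.0507), without a filter on low values (0.091), with median-ratio scaling (0.0502), without a variance trend (0.146) and with any 1 library left out (0.0824 to 0.136). *Srpr* shares 39 nt with *Tirap* and 50 nt with *Fam118b* on the opposite strand, or 2.65% of its exon sequence together. *Fam118b* was between 6.45 and 11.7 TPM and *Tirap* between 0.348 and 1.5 TPM.

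Neither gene of the translocon was called. *Sec61a1*, the channel itself, was at 21.9, 15.0 and 29.1 TPM in control KD and 15.5, 13.7 and 17.1 TPM in *Yy1* KD morulae. The control KD libraries were far apart from each other, and control KD library 2 lay among the *Yy1* KD libraries (log2 fold change -0.44, standard error 0.23, limma adjusted p = 0.307). An antisense gene, *Gm44170*, shares 549 nt with *Sec61a1*, or 8.2% of its exon sequence. It was listed at 22.3, 24.1 and 36.3 TPM against 21.3, 15.8 and 24.6 TPM. Without strand, pairs on the shared stretch cannot be told apart. *Sec61b*, a small accessory subunit, was at 24.9, 22.9 and 26.5 TPM in control KD and 38.4, 25.6 and 29.2 TPM in *Yy1* KD morulae. *Yy1* KD library 2 lay within the control range (log2 fold change 0.30, standard error 0.16, limma adjusted p = 0.309). *Sec61g*, the remaining subunit of the channel, was at 11.7 ± 0.502 and 11.7 ± 2.50 TPM (SD, n = 3 each).

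Of the 9 members other than *Srp68*, 2 were thus called lower, where 4.2% of all genes tested were, and 1 was called higher, where 1.92% were. All 3 *Yy1* KD values were below all 3 control KD values in 2 of the 9 (17.2% of all genes) and above them in 3 (12.9% of all genes), and the groups overlapped in 4. The median log2 fold change of the 9 was 0.30, against -0.02 over all genes tested. With so few genes these counts are a description of the list. With 1 library left out, limma called 0 of the 9 lower and 0 higher for each library other than *Yy1* KD replicate 3, without which 1 was called lower. At an unadjusted p under 0.05 these fits gave 2 or 3 of the 9 lower and 3 or 4 higher, where between 11.2% and 14% of all genes were lower and between 7.87% and 8.49% higher. Over all genes, the same 6 fits called between 53 (without control KD replicate 3) and 326 genes lower, in place of 728, and between 22 and 92 higher, in place of 333.

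TPM is scaled to gene length, so that levels can be set against each other within a library. In control KD morulae *Srp68* was more abundant than *Srp72*, with a ratio of 1.72, 1.99 and 1.79 in the 3 libraries. In *Yy1* KD morulae the ratio was 0.650, 0.539 and 0.591. The order of the heterodimer partners in TPM was therefore reversed in all libraries, a change of -1.63 in the log2 ratio, which is a description because *Srp68* enters it. The order in control KD rests on the annotated exon lengths (2737 nt for *Srp68*, 5717 nt for *Srp72*). In read pairs, *Srp72* was above *Srp68* in every control KD library (1300, 2431 and 1773 against 1072, 2314 and 1517). The ratio of *Srp9* to *Srp14* was 0.373 ± 0.020 and 0.398 ± 0.068 (SD, n = 3 each) and overlapped between the groups (two-sided exact permutation test, p = 0.7). Against *Srp14*, the most abundant protein gene of the particle, *Srp72* stood at a ratio of 0.213, 0.211 and 0.224 in control KD and 0.126, 0.125 and 0.132 in *Yy1* KD morulae. The libraries of each group were close together (exact permutation test, p = 0.1). The groups had to be apart here, because *Srp72* was lower and *Srp14* higher in all *Yy1* KD libraries.

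For the receptor, the ratio of *Srpr* to *Srprb* was 4.29, 4.63 and 3.50 in control KD and 10.3, 9.70 and 7.14 in *Yy1* KD morulae. It was higher in all *Yy1* KD libraries, by 1.12 on the log2 scale (two-sided exact permutation test, p = 0.1). This separation and its p follow from *Srpr* being higher and *Srprb* lower in all *Yy1* KD libraries, so they add no further evidence. For the translocon, the ratio of *Sec61a1* to *Sec61b* was 0.877, 0.654 and 1.10 against 0.404, 0.534 and 0.586. The groups were apart (exact permutation test, p = 0.1), although neither gene was called by itself. Over the 4 ratios tested, the Benjamini-Hochberg adjusted value of these exact permutation tests was 0.133 for each of the 3 whose groups were apart. Of these 3, only the ratio of *Sec61a1* to *Sec61b* was not fixed by the separations of its genes.

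**Figure D2:**
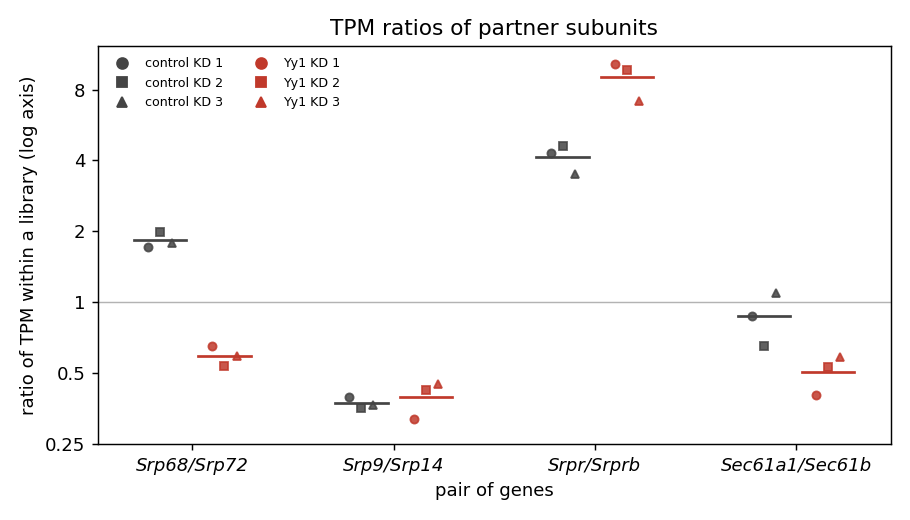
Ratio of the TPM of partner subunits within each library, on a log axis, with control KD in grey and *Yy1* KD in red, symbols for replicates 1 to 3 and bars for the mean of 3 libraries. The ratio of *Srp68* to *Srp72* is between 1.72 and 1.99 in control KD and between 0.539 and 0.650 in *Yy1* KD libraries, and that of *Srp9* to *Srp14* overlaps between the groups.

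The order of the 10 genes by level was led in both groups by *Srp14* and *Srpr*, whose ranges were apart from each other and from all other members. In control KD morulae *Srp68* came next and its range overlapped that of *Srp9*, followed by *Srp72*, then *Srprb* and *Srp19* with overlapping ranges, then *Sec61b*, *Sec61a1* and *Srp54a*, each overlapping the next. In *Yy1* KD morulae *Srp9* came next alone, *Srp19*, *Srp72* and *Sec61b* formed a middle group with overlapping neighbours, and *Srprb*, *Srp68*, *Srp54a* and *Sec61a1* formed a lowest group in which each overlapped the next. By TPM, and so with the exon lengths used, *Srp68* thus moved from rank 3 to rank 8 of 10.

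The profile of *Srp68* over the 6 libraries, taken as log2(TPM + 1) minus the control KD mean, was compared by Euclidean distance with those of 6403 named genes of at least 10 TPM. The nearest were *Zcchc10* (distance 0.440 on the log2 scale), *Ndufa5* (0.560), *Eef2kmt* (0.632), *Ddx3y* (0.691) and *Tmed10* (0.697). *Zcchc10*, a zinc knuckle protein gene, was at 59.3, 68.2 and 59.6 TPM in control KD and 23.4, 13.6 and 13.5 TPM in *Yy1* KD morulae. *Tmed10*, which encodes a cargo receptor of vesicles between ER and Golgi, was at 47.1, 37.7 and 52.5 TPM against 13.5, 10.4 and 15.0 TPM. *Ndufa5* encodes a subunit of respiratory complex I and *Eef2kmt* a methyltransferase of elongation factor 2. *Ddx3y* is Y-linked, so that its level also moves with the unknown share of males in a pool. Of the members, *Srprb* was nearest to *Srp68* (distance 2.22, rank 252 of 6403), followed by *Srp72* (2.75, rank 848) and *Sec61a1* (2.84, rank 1048). These likenesses rest on the same contrast by which *Srp68* was picked and are a description.

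Beyond the members, 74 tested genes of 8 lists around ER targeting were examined, of which 7 were called lower (9.46%, against 4.2% of all genes) and 1 higher (1.35%, against 1.92% of all genes). The median log2 fold change of the 74 was -0.31, and 59 were below 0, against -0.02 and 52.8% over all genes tested. All genes tested include many of low TPM (8084 of 17353 averaged at least 10 TPM), and shares for genes of like level were not computed. With 1 library left out, between 1 (without control KD replicate 1 or 3) and 3 of the 74 were called lower and 0 higher, where between 0.305% and 1.88% of all genes were called lower and between 0.127% and 0.530% higher. At an unadjusted p under 0.05 these fits gave between 27.0% and 41.9% of the 74 lower and between 2.70% and 4.05% higher, against 11.2% to 14% and 7.87% to 8.49% of all genes.

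Of 18 partners of the translocon tested, 3 were called lower (16.7%, against 4.2% of all genes). The log2 fold change was below 0 in 16 of the 18 (against 52.8% of all genes), with a median of -0.41. The groups did not overlap in 7 of those, where 17.2% of all genes had all *Yy1* KD values lower. Of the 3 called, *Ssr1* and *Ssr3* encode subunits of the translocon-associated protein complex, which assists the entry of some signal sequences. *Ssr1* was at 21.9, 15.3 and 18.1 TPM in control KD and 9.09, 7.08 and 9.31 TPM in *Yy1* KD morulae (log2 fold change -1.03, limma adjusted p = 0.0260). *Ssr3* was at 105.3, 101.1 and 133.4 TPM against 70.3, 62.1 and 77.1 TPM (-0.68, limma adjusted p = 0.0358). The other 2 subunits of this complex, *Ssr2* (-0.38, limma adjusted p = 0.0692) and *Ssr4* (-0.50, limma adjusted p = 0.0589), also had groups that did not overlap but were not called. *Tram1*, which encodes a membrane protein beside the channel, was at 86.2, 105.0 and 116.5 TPM against 71.0, 61.3 and 69.1 TPM (-0.60, limma adjusted p = 0.0443). Each of these 3 calls was lost with any 1 library left out (limma adjusted p from 0.0525 to 0.13), and *Tram1* was past the threshold in 4 of 15 alternatives, *Ssr1* in 8 and *Ssr3* in 7. The member of this list with the highest mean level was *Hspa5*, the ER chaperone BiP, which was not called (-0.31, limma adjusted p = 0.632).

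Of the genes that act on chains after entry, 1 of 5 signal peptidase genes, *Spcs2*, was called lower (20%, against 4.2% of all genes). It was at 20.5, 21.4 and 30.0 TPM in control KD and 9.39, 8.06 and 8.46 TPM in *Yy1* KD morulae, 36.1% of control (log2 fold change -1.35, standard error 0.17, limma adjusted p = 0.0126), and it was called in all 15 alternatives. The remaining 4 signal peptidase genes had log2 fold changes between -0.38 (*Sec11a*) and -0.32 (*Spcs1* and *Spcs3*) and no call. Of 12 oligosaccharyltransferase genes, which attach N-linked glycans, 10 were below 0 (median -0.35), against 52.8% of all genes. The catalytic subunit *Stt3b* was the 1 called (8.33%, against 4.2% of all genes called lower). It was at 112.0, 85.3 and 126.9 TPM against 57.9, 60.4 and 66.4 TPM (-0.79, limma adjusted p = 0.0342). This call was kept in 7 of 15 alternatives and, of the fits with 1 library left out, only without control KD replicate 2 (limma adjusted p = 0.0296, against 0.0708 to 0.107). *Rpn1* (-0.91, limma adjusted p = 0.0554) and *Ostc* (-0.71, limma adjusted p = 0.0514) missed the threshold with groups that did not overlap.

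The lists of tail-anchored insertion and nascent chain binding were mixed, and most genes of the ER membrane protein complex were below 0 without a call. In the list of tail-anchored protein insertion, 2 of 8 genes were called lower (25%, against 4.2% of all genes), those of the membrane receptor. *Caml* was at 54.4, 45.0 and 53.8 TPM in control KD and 28.7, 24.8 and 24.4 TPM in *Yy1* KD morulae (log2 fold change -0.95, limma adjusted p = 0.0126), a call that was lost without control KD replicate 1 (0.0528) or 3 (0.0599) and kept in the other 13 alternatives. Its partner *Get1* was at 8.29, 4.46 and 6.80 TPM against 2.44, 1.98 and 2.40 TPM, 34.9% of control (-1.17, limma adjusted p = 0.0412). The call of *Get1* was kept in 5 of 14 alternatives and lost with any 1 library left out (limma adjusted p from 0.0525 to 0.133). The remaining genes of the list, with *Sgta* at the highest level (0.16, limma adjusted p = 0.380), gave no call and the median of all 8 was -0.02. Of the 10 genes of the ER membrane protein complex, an insertase, 9 were below 0 (against 52.8% of all genes), with a median of -0.21. Limma on TPM called 0 of them. At an unadjusted p under 0.05, 1 of the 10 was lower (10%, against 14.4% of all genes). With limma-voom, 1 of 9 tested was called lower (11.1%, against 7.59% of all genes). The most abundant gene of this complex was *Emc4* (-0.02, limma adjusted p = 0.906). *Naca*, which encodes a subunit of the complex that shields nascent chains from SRP, was the called gene that was higher, at 261.4, 260.2 and 230.5 TPM in control KD and 354.4, 328.4 and 319.9 TPM in *Yy1* KD morulae (0.41, limma adjusted p = 0.0358). This call was kept in 6 of 15 alternatives and lost with any 1 library left out (limma adjusted p from 0.0740 to 0.107). The partner of *Naca*, *Btf3*, was not called (-0.23, limma adjusted p = 0.148).

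**Figure D3:**
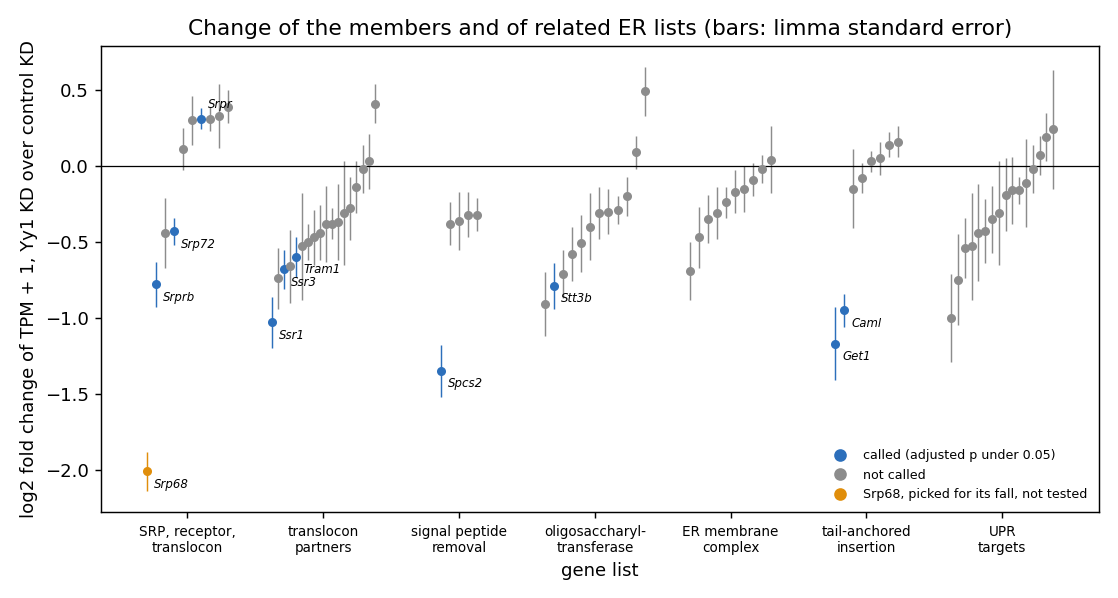
Log2 fold change of TPM + 1, *Yy1* KD over control KD, for the 10 members and for 6 lists of related ER genes, each point 1 gene with its limma standard error. Called genes are blue and named, *Srp68* is orange, and the rest are grey. Most genes of every related list but that of tail-anchored insertion lie below 0, and the members lie on both sides of it.

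Transcripts of the unfolded protein response, by which cells raise chaperones when proteins accumulate in the ER, were not called in either direction by limma on TPM. Of 16 genes tested 13 were below 0, and the median log2 fold change was -0.25. At an unadjusted limma p under 0.05, 3 were lower (18.8%) and 0 higher. Limma-voom tested 14 of these genes and called 1 lower (7.14%). Over all genes, 14.4% were lower and 9.35% higher at that unadjusted p, and limma-voom called 7.59% lower. The *Hspa5* and *Calr* values differed mainly in control KD library 3. *Hspa5* was at 131.3, 105.1 and 287.4 TPM in control KD and 130.8, 125.3 and 126.4 TPM in *Yy1* KD morulae. *Calr*, the ER chaperone calreticulin and the most abundant gene of the list, was at 347.3, 266.9 and 632.2 TPM against 347.1, 349.3 and 388.2 TPM. In both genes the *Yy1* KD libraries were close to control KD library 1, and control KD library 3 was 2.32 times (*Hspa5*) and 1.86 times (*Calr*) the mean of the other 5. In *Pdia4*, a disulfide isomerase gene, the *Yy1* KD libraries were also below control KD libraries 1 and 2, at 141.0, 105.8 and 240.1 TPM against 64.4, 75.1 and 91.0 TPM (47.3% of control, limma adjusted p = 0.0980). The same was true of *Pdia6* and *Creld2*, which were not called either.

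Control KD library 3 had the highest value of all 6 libraries in 13 of 16 unfolded protein response genes (81.2%), in 23 of 36 genes of the translocon partner, signal peptide and oligosaccharyltransferase lists (63.9%), and in 2 of the 10 members (*Srprb* and *Sec61a1*, 20%). *Hspa5* and *Hyou1* are in both the unfolded protein response and the translocon partner list, and so count in both shares. Over all genes tested the share was 21.1%. Without this library the median of the unfolded protein response list was 0.01, and the log2 fold change was 0.12 for *Hspa5* and 0.25 for *Calr*. The medians of the translocon partner, signal peptide and oligosaccharyltransferase lists were -0.31, -0.30 and -0.30 without it, against -0.41, -0.36 and -0.35 with it. *Sec61a1* went from -0.44 to -0.22, *Srprb* from -0.78 to -0.66, and *Spcs2* from -1.35 to -1.19. Leaving out control KD library 2 instead moved these values the other way. The medians of the translocon partner, signal peptide and oligosaccharyltransferase lists were then -0.60, -0.50 and -0.50. That of the unfolded protein response list was -0.43, with *Sec61a1* at -0.68, *Srprb* at -0.85 and *Spcs2* at -1.42. What set control KD library 3 apart was not tested.

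**Figure D4:**
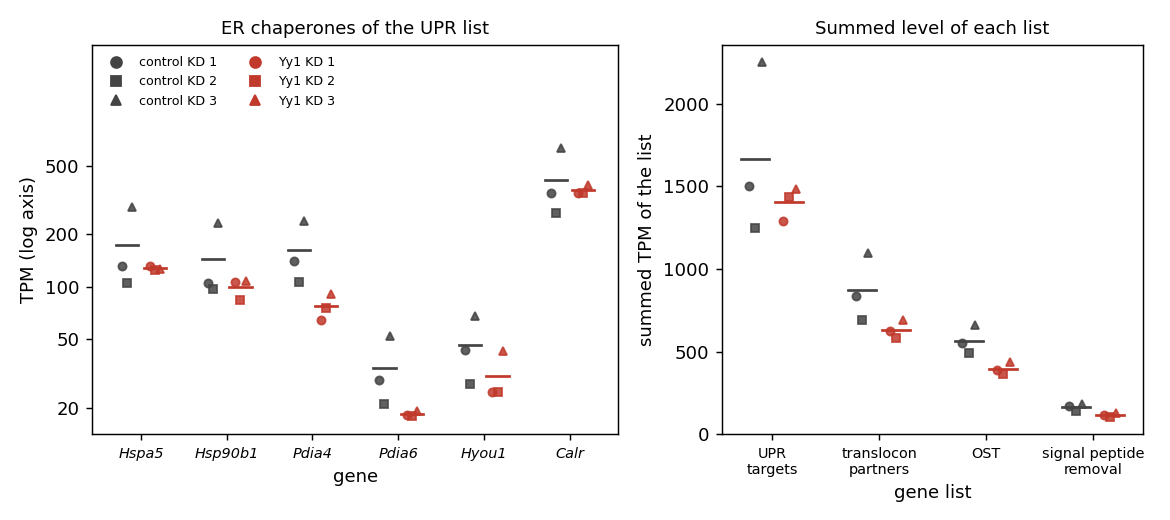
Left, TPM on a log axis of 6 ER chaperone and folding genes of the unfolded protein response (UPR) list. Right, summed TPM of 4 gene lists on a linear axis from 0 (OST, oligosaccharyltransferase). Symbols mark replicates 1 to 3, bars the mean of 3 libraries, grey control KD and red *Yy1* KD. Control KD library 3 lies highest, with a summed level of 2249 TPM of UPR targets against 1246 to 1504 TPM in the other 5 libraries. *Hspa5* and *Hyou1* enter the sums of both UPR targets and translocon partners.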

How the data were processed

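Total RNA-seq of pooled morulae used SMART-Seq Stranded libraries and paired reads. The authors trimmed reads with Trim Galore (0.6.7), aligned them to mm10 with HISAT2 (2.2.1), removed ribosomal RNA reads with bedtools and assigned pairs to GENCODE vM25 genes with featureCounts (2.0.1; versions from the submitters' processing notes), without strand and with pairs divided among overlapping genes. The deposited values are TPM, which give the length-scaled share of a gene in its library. The 6 columns were mapped to libraries by their labels, and none was left unused.

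On log2(TPM + 1), limma (3.58.1, R 4.3.3) was run with a variance trend for genes that reached 1 TPM in 3 or more of the 6 libraries, and a gene was called at a Benjamini-Hochberg adjusted p under 0.05 over all genes tested. The authors' count test (edgeR) was not run, because TPM are not counts. Differences on this scale understate changes of genes with low TPM. Single values were compared with two-sided exact permutation tests. Standard errors are those of limma. Exon lengths and overlaps came from GENCODE vM21 on the same assembly (98.1% of identifiers matched with their version), and gave read pairs, of which between 80.6% and 81.7% of values under 20 were whole within 0.02. Python 3.11.15, pandas 2.3.3, scipy 1.17.1 and matplotlib 3.10.9 were used.

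The members and lists were chosen with earlier results of these data known, and the motifs after the sequences had been read. Genes named were the members, *Yy1*, the called genes and the most abundant gene of each pathway list, the 5 genes most like *Srp68*, its coding neighbours and genes overlapping a member. *Ssr2*, *Ssr4*, *Rpn1*, *Ostc*, *Sec61g*, *Btf3*, *Pdia4*, *Pdia6*, *Creld2*, *Tfap2c*, *Pou5f1* and the signal peptidase genes without a call were named after their values had been seen. *Hm13* was absent from the table and *Ddit3* was listed under 2 identifiers, so both were left out of their lists. Alternatives were a pseudocount of 0.1, other filters, scalings and variance settings, library weights, a replicate block, leaving out each library, and limma-voom on read pairs, which was added after the data had been seen. YY1 binding, repetitive elements and other stages were not analysed here.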

Additional observations from a re-analysis of the deposited data

How the results depend on the processing

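Over all genes, 728 were called lower and 333 higher. These counts became 270 and 77 without a filter on low values, 382 and 132 without a variance trend, 218 and 69 with a replicate block, and 1285 and 801 with limma-voom on read pairs. With 1 library left out they were between 53 and 326 and between 22 and 92. Of the members other than *Srp68*, 2 were called lower. This was 1 with median-ratio scaling, with quantile normalization and with the replicate block, and 0 without a filter and without a variance trend. It was between 0 and 1 with a library left out. The member called higher was *Srpr*, and the count was 0 with a pseudocount of 0.1, without a filter, with median-ratio scaling, without a variance trend, with the replicate block and with any library left out. With limma-voom the count was 3 (33.3%, against 4.73% of all genes). Of the pathway genes, 7 were called lower and 1 higher. These became 2 and 0 without a filter, 3 and 0 without a variance trend, and between 1 and 3 and 0 with a library left out. Limma-voom tested 70 of the pathway genes and called 15 lower (21.4%, against 7.59% of all genes). None was called higher (0) with the replicate block. At an unadjusted p under 0.05, each of these fits gave 2 or 3 members lower and 3 or 4 higher.

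Single genes that changed sign were *Srp19* (-0.04 without *Yy1* KD replicate 1, up to 0.20 with another library left out), *Hspa5* and *Calr* (0.12 and 0.25 without control KD replicate 3, down to -0.60 and -0.38 without control KD replicate 2), and *Emc4* (0.01 with median-ratio scaling or quantile normalization, and between -0.09 and 0.04 with a library left out, with 0.02 without *Yy1* KD replicate 3). None of these was called with all libraries. Of the list medians, that of tail-anchored insertion went from -0.02 to 0.03 (genes averaging 5 TPM or more), 0.02 (median-ratio scaling or quantile normalization), 0.01 (without control KD replicate 2) and 0.05 (without *Yy1* KD replicate 2), and that of the unfolded protein response to 0.01 without control KD replicate 3. *Srp68* stayed between -2.13 and -1.90 in all 15 alternatives. Fits without a library have fewer samples, and the fit without a filter tests more genes. The cause of the other changes was not tested. Same-numbered libraries shared no deviation from their group means (r between -0.00388 and 0.0747 across genes), and not every library correlated best with its own number. Nothing states whether same-numbered pools were collected together, and these correlations cannot show it. The replicate block took the limma adjusted p to 0.0932 for *Srp72*, 0.116 for *Srpr*, 0.0903 for *Tram1*, 0.0579 for *Stt3b*, 0.0737 for *Get1* and 0.0688 for *Naca*. Depth limits *Sec61b* (at least 164 read pairs) and *Srp68* (at least 234) the most among members.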
